A study of Mus musculus with 6 samples.

Results

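The genes described are 39 interferon-stimulated genes, picked by symbol from a list of well-known targets of type I and type II interferon, among 24063 gene symbols counted in LSK cells. LSK cells are bone-marrow cells that lack lineage markers and carry Sca-1 and c-Kit, and they hold the blood stem cells and early progenitors. RNA was sequenced in 3 libraries from Asxl2-/- and 3 from control mice, all C57BL/6. Both groups carried the Mx1-cre transgene, both had been injected with pIpC, and the controls are called wild type in the labels. In the Asxl2-/- group, exon 11 of the floxed Asxl2 alleles is removed by a Cre recombinase that is driven by the Mx1 promoter. The study methods put the sort 4 weeks after pIpC. No mouse without pIpC was analysed here, so the response to pIpC itself could not be measured, and every comparison is between mutant and control mice that had both received it. The sexes also differed. Y-linked RNA was counted in control libraries (1026 to 4807 counts for each of 4 genes) and hardly in Asxl2-/- libraries (no more than 2), so genotype and sex cannot be told apart in any value below.

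Interferons are secreted proteins that cells release on sensing foreign nucleic acid. Type I interferons act through the receptor Ifnar1-Ifnar2, the kinases Jak1 and Tyk2 and a complex that holds Stat2 and Irf9 and binds the interferon-stimulated response element, or ISRE. Interferon gamma acts through its own receptor and leads to binding at the GAS element. The genes switched on in this way include sensors of viral RNA and DNA, enzymes that degrade or block RNA, GTPases that act on virus particles and pathogen vacuoles, and the ubiquitin-like modifier Isg15. pIpC is a synthetic double-stranded RNA that is itself sensed as viral, and blood stem cells are known to respond to the interferon it induces. Mx1, whose promoter drives the Cre transgene, is one of these genes.

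The counts came in 2 kinds of file. Asxl2-/- replicates 1 and 3 and control replicate 2 had 1 count per transcript (gene-count files, 25528540 to 29136012 counts in all). Asxl2-/- replicate 2 and control replicates 1 and 3 had counts per exon (exon-count files, 53147729 to 55032075), in which a read that spans a junction can be counted in each exon it touches. Levels are therefore best compared between libraries of 1 kind, and the kind of file was a covariate in the test of group. Where CPM of both kinds are set side by side below, the readings include any shift between the kinds. Trim25, for instance, was at 116.2 and 121.3 CPM in Asxl2-/- replicates 1 and 3 and at 84.4 CPM in Asxl2-/- replicate 2. Values in single libraries are CPM, counts scaled to a common, normalised library size. In the exon-count files, exon 11 held 28 of 4804 Asxl2 counts in Asxl2-/- replicate 2, a share of 0.583% (95% Wilson interval 0.404 to 0.841), against 10.3% (9.45 to 11.2) and 11.99% (11.03 to 13.01) in control replicates 1 and 3. These intervals cover counting error only. The gene-count files do not resolve exons, so this check does not reach the other 3 libraries.

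The sequence by which these genes are known to be recognised was looked for in RefSeq promoters on GRCm38.p6, taken as the 250 bases before and the 50 bases after the start site. An entry was found for 28 of the 39 genes. The ISRE core, GAAA followed by any 2 bases and another GAAA on either strand, was present in 15 of the 28 (53.6%) and in 3.99% of 27025 genes with an entry (3.44% of their 32851 promoters). A GAS motif, TTC followed by any 3 bases and GAA, was present in 6 of the 28 (21.4%) and in 9.55% of all genes (8.30% of promoters). These are matches of letters in a window and were not tested as binding sites. The stretches around the cores upstream of the start site are shown for 5 genes that had lower fitted levels in Asxl2-/- cells and 3 that did not, read along the gene's strand with every core base in capitals.
Gbp2 (chr3:142620584-142620633, + strand): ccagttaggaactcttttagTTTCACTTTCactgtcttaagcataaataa
Gbp3 (chr3:142559979-142560034, + strand): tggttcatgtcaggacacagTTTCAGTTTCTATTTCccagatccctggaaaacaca
Isg15 (chr4:156200855-156200916, - strand): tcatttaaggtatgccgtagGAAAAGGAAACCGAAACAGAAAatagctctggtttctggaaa
Bst2 (chr8:71537567-71537622, - strand): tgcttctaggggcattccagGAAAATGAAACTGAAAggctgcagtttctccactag
Ifi205 (chr1:174031860-174031909, - strand): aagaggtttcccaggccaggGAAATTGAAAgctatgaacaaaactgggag
Ifi203 (chr1:173942498-173942547, - strand): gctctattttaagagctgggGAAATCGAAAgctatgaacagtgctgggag
Rsad2 (chr12:26456543-26456592, - strand): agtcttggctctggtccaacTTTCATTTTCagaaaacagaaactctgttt
Ifit3 (chr19:34583353-34583436, + strand): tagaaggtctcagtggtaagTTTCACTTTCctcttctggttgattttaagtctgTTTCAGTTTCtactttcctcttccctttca
In Isg15, 3 overlapping cores lay 56 bases before the start site, in Gbp3 and Bst2 2 cores overlapped, and in Ifit3 2 cores lay apart. Ifi205 and Ifi203, neighbours on chromosome 1, each had 1 core upstream of the start site, Ifi205 had another one downstream of it, and the genes differ in their measured values below. Isg20 had no ISRE core in its window and had a GAS match, shown in capitals, 64 bases before the start site.
Isg20 (chr7:78913331-78913379, + strand): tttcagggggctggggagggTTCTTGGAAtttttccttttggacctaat
The fitted log2 fold changes, Asxl2-/- against control, had a median of -0.28 in the 15 genes with an ISRE core and -0.42 in the 13 without, and both sets held genes on either side of zero.

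Many of the genes lie beside others of the list, often relatives of the same family. On mm10, the build of the files, the Hin200 genes Ifi204, Ifi203 and Ifi205 span chr1:173747294-174031755, Gbp3 and Gbp2 chr3:142560052-142638008, Oasl2 and Oasl1 chr5:114896934-114937911, and Oas2, Oas3 and Oas1a chr5:120730333-120907525. Rsad2 and Cmpk2 span chr12:26442743-26479837, Parp14, Dtx3l and Parp9 chr16:35832878-35972621, Mx1 and Mx2 chr16:97447037-97560901, and Ifit2, Ifit3 and Ifit1 chr19:34550694-34650009. Genes with no other gene of the list nearby include Isg20 at chr7:78913424-78920396, Lgals3bp at chr11:118392752-118401931, Usp18 at chr6:121245906-121270917 and Ifi44 at chr3:151730923-151749959.

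All 39 genes passed the filter on low counts and were tested. None of the 39 was called different between Asxl2-/- and control cells at an edgeR adjusted p under 0.05, while 2.34% of the 14145 genes tested in all were called (2.04% higher and 0.304% lower in Asxl2-/- cells). At an unadjusted p under 0.05 there were 19 of the 39 (17 lower, 2 higher in Asxl2-/- cells), a share of 48.7%, against 27.7% of all tested genes (12.6% lower, 15.0% higher). The fitted value lay below zero for 30 genes and above zero for 9. Its median was -0.37 over the 39 genes and 0.00 over all tested genes, and the extremes were -2.09 for Gbp2 and 0.53 for Oas2. With limma-voom 0 of the 39 were called (14 at an unadjusted p under 0.05; 3.04% of all genes called), and with DESeq2 9 were called, all lower in Asxl2-/- cells, where 16.3% of all genes were called. The count of 0 depended on single libraries, since edgeR called 11 of the 39, all lower, without control replicate 1 (9.33% of all genes) and 3, all lower, without Asxl2-/- replicate 2 (4.67% of all genes).

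**Figure D1:**
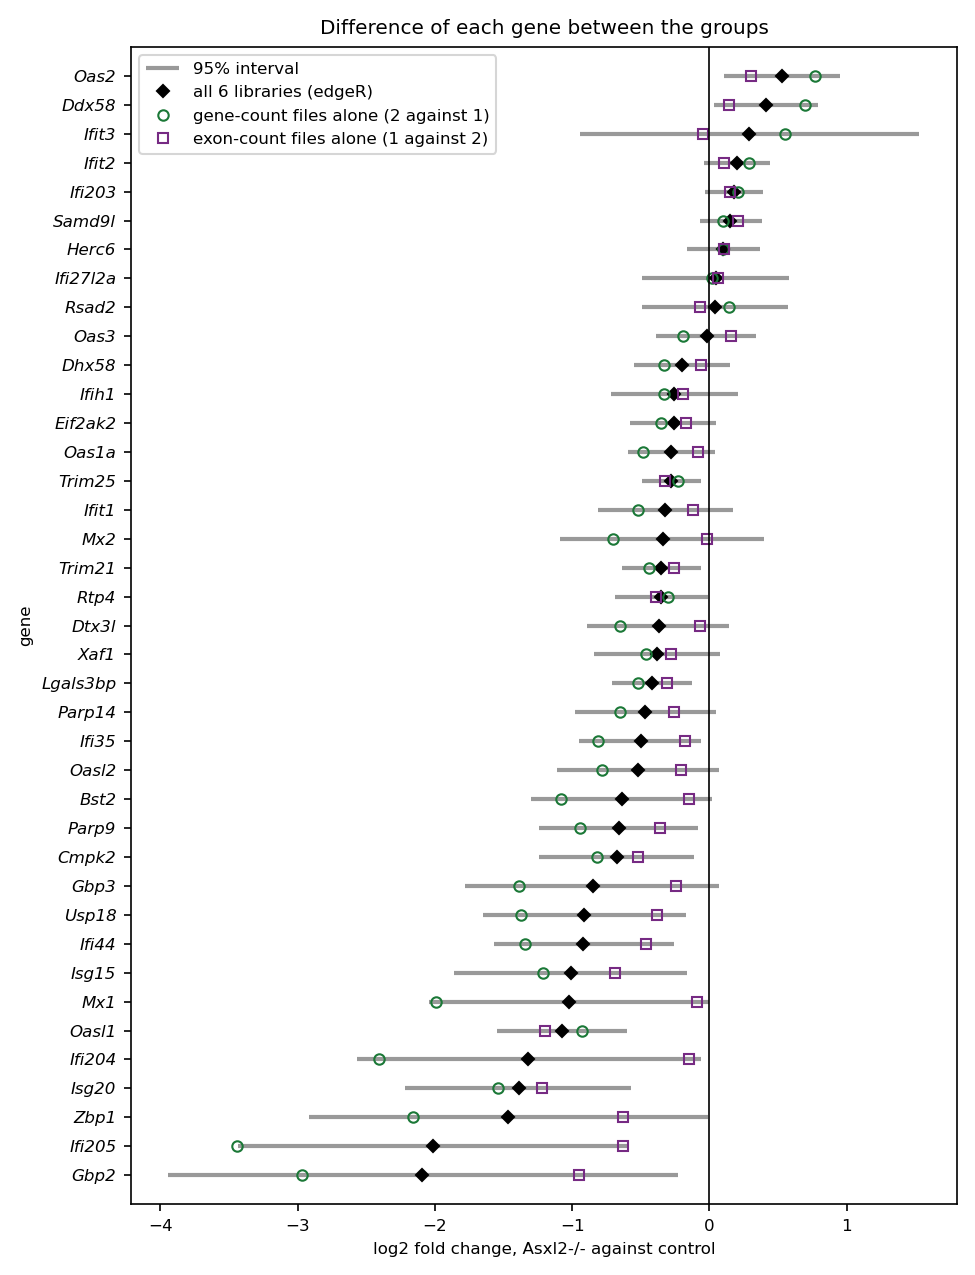
Fitted log2 fold change of each of the 39 genes, Asxl2-/- against control (diamonds, with 95% intervals as bars), beside the values within the gene-count files (open circles) and within the exon-count files (open squares). The fitted values run from -2.09 for Gbp2 to 0.53 for Oas2, and for each gene with a fitted value below -0.50 except Oasl1 the gene-count files show the larger difference.

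Nucleic-acid sensors came first in the order of roles. Ifih1 (MDA5), Ddx58 (RIG-I) and Dhx58 (LGP2) are RNA helicases that bind viral or synthetic double-stranded RNA, and Zbp1 binds Z-form nucleic acid. Zbp1 was at 11.4, 23.5 and 29.6 CPM in Asxl2-/- replicates 1, 2 and 3 and at 18.5, 82.2 and 71.4 CPM in control replicates 1, 2 and 3. Control replicate 1 lay with the Asxl2-/- libraries and the other two controls well above them. The fitted log2 fold change was -1.47 (SE 0.599, adjusted p of 0.179 by edgeR). Ddx58 went the other way, with 51.9, 46.6 and 52.9 CPM in Asxl2-/- and 46.3, 32.3 and 38.6 CPM in control libraries, where the lowest Asxl2-/- value was just above the highest control value. Its log2 fold change was 0.41 (SE 0.157, adjusted p of 0.160 by edgeR). Ifih1 and Dhx58 had fitted values of -0.26 and -0.20 that lay less than 2 SE from zero.

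Of the Ifit proteins, Ifit1 binds viral RNA ends that lack the host's cap methylation. Ifit2, the most abundant of the 3 per length, had 33.0 and 31.5 CPM in Asxl2-/- replicates 1 and 3 against 26.4 in control replicate 2. In the exon-count files it was at 20.5 CPM in Asxl2-/- replicate 2 and at 19.1 and 18.9 in the controls. The differences were in 1 direction within both kinds of file and small, with a log2 fold change of 0.20 (SE 0.100). Ifit1 and Ifit3 were scarce, Ifit3 with as few as 19 counts in a library, and their fitted values were -0.32 and 0.29. None of the 3 had an unadjusted p under 0.05.

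The 2′-5′-oligoadenylate synthetases make the short messenger that activates RNase L, Oasl1 is a family member without that activity that restrains translation of Irf7, and Eif2ak2 (PKR) blocks translation when it binds double-stranded RNA. Oasl1 had the smallest p-value of the 39. It was at 10.6, 10.02 and 12.2 CPM in Asxl2-/- replicates 1 to 3 and at 18.9, 21.6 and 27.8 CPM in control replicates 1 to 3. No Asxl2-/- library reached any control library, and the difference was of like size within both kinds of file. After the kind of file was removed the mean was 3.44 ± 0.129 log2 CPM (SD, n = 3) in Asxl2-/- and 4.50 ± 0.288 (SD, n = 3) in control cells, and the log2 fold change was -1.07 (SE 0.194, 95% interval -1.55 to -0.60, adjusted p of 0.0514 by edgeR). Oas2 had the largest fitted increase of the list, with 22.6, 16.6 and 18.1 CPM in Asxl2-/- and 14.3, 11.9 and 12.7 CPM in control libraries. The groups did not overlap, and the log2 fold change was 0.53 (SE 0.174, adjusted p of 0.124 by edgeR). Its neighbours on chromosome 5 stood nearer to zero, Oas3 at -0.02 and Oas1a at -0.28. Oasl2, next to Oasl1, was at -0.52 (SE 0.242), and Eif2ak2 at -0.26 (SE 0.130), neither with an unadjusted p under 0.05.

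The interferon-induced GTPases held the widest differences between libraries. Gbp2, a guanylate-binding protein that coats pathogen vacuoles, was at 57.7, 121.6 and 192.9 CPM in Asxl2-/- replicates 1 to 3 and at 97.3, 828.6 and 566.7 CPM in control replicates 1 to 3. Control replicates 2 and 3 were far above every other library, and control replicate 1 was below Asxl2-/- replicate 2, the other exon-count library beside control replicate 3. The log2 fold change was -2.09 (SE 0.764, 95% interval -3.94 to -0.23, adjusted p of 0.150 by edgeR), made up of -2.97 among gene-count and -0.95 among exon-count libraries. Gbp3, next to it on chromosome 3, had the same order with a smaller range, 88.9, 136.5 and 136.4 CPM against 106.1, 287.8 and 243.2 CPM, and a log2 fold change of -0.85 (SE 0.379, adjusted p of 0.204 by edgeR). Without control replicate 1 Gbp3 passed the threshold (log2 fold change -1.13, adjusted p of 0.0495 by edgeR), and without control replicate 2 its value was -0.35 (adjusted p of 0.751 by edgeR).

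Mx1 and Mx2 make dynamin-like antiviral GTPases in wild mice. The RefSeq table lists both as transcribed pseudogenes, a known feature of C57BL/6 and most laboratory strains. Mx1 RNA was nevertheless counted in every library, and in the exon-count files all 11 exons of the transcript held counts. It was at 5.22, 5.49 and 3.46 CPM in Asxl2-/- replicates 1 to 3 and at 5.91, 16.9 and 5.74 CPM in control replicates 1 to 3. Control replicate 2 alone was high, and in the exon-count files the difference was -0.09 on the log2 scale. The fitted log2 fold change of -1.02 (SE 0.418, adjusted p of 0.180 by edgeR) thus came from the gene-count files, in which it was -1.99. Mx2, with 1.27 to 2.54 CPM, had a log2 fold change of -0.34 (SE 0.306, adjusted p of 0.493 by edgeR).

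Isg15 is joined to other proteins by enzymes that include Herc6 and Trim25, and Usp18 takes it off again and also damps the type I receptor. Isg15 was at 9.62, 10.2 and 12.3 CPM in Asxl2-/- replicates 1 to 3 and at 10.5, 25.1 and 25.6 CPM in control replicates 1 to 3. As in Gbp2 and Zbp1, control replicate 1 stood with the Asxl2-/- libraries. The log2 fold change was -1.01 (SE 0.348, adjusted p of 0.135 by edgeR). Usp18 was at 11.7, 18.1 and 12.3 CPM against 17.0, 31.1 and 32.7 CPM, with the lowest control value below the highest Asxl2-/- value, and a log2 fold change of -0.91 (SE 0.304, adjusted p of 0.129 by edgeR). Trim25 differed little but evenly. It was at 116.2 and 121.3 CPM against 139.6 in the gene-count files and at 84.4 CPM against 98.5 and 112.6 in the exon-count files, with a log2 fold change of -0.28 (SE 0.0893, adjusted p of 0.122 by edgeR). Herc6 was at 0.10 (SE 0.110).

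Parp9 and Dtx3l form a complex of an ADP-ribosyltransferase family protein and a ubiquitin ligase and lie beside Parp14 on chromosome 16. Their log2 fold changes were -0.66 (SE 0.240) for Parp9, -0.37 (SE 0.212) for Dtx3l and -0.47 (SE 0.212) for Parp14, and Parp9 alone had an unadjusted p under 0.05. The exons of Parp9 and Dtx3l overlap by 334 bases, 9.37% of Parp9 and 6.45% of Dtx3l. The libraries were unstranded, so reads in that stretch could not be given to either gene, and the 2 values are not wholly separate. In all 3 genes control replicate 2 was the highest gene-count library and control replicate 3 the highest exon-count library, and Asxl2-/- replicate 2 lay between the 2 controls of its kind.

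The Hin200 genes on chromosome 1 encode DNA-binding proteins that include cytosolic DNA sensors. Ifi205 was at 4.22, 10.4 and 5.11 CPM in Asxl2-/- replicates 1 to 3 and at 16.1, 50.7 and 16.2 CPM in control replicates 1 to 3. All control values were above all Asxl2-/- values, and control replicate 2 was far above the rest. The log2 fold change was -2.01 (SE 0.584, 95% interval -3.43 to -0.59, adjusted p of 0.105 by edgeR), made up of -3.44 among gene-count and -0.63 among exon-count libraries. Ifi204 had 9.80 CPM in control replicate 2 and 1.40 to 2.34 CPM elsewhere, and its log2 fold change was -1.32 (SE 0.516, adjusted p of 0.168 by edgeR). Ifi203, by contrast, was abundant and slightly higher in Asxl2-/- cells within both kinds of file, with 181.5 and 164.6 CPM against 149.6 and at 104.9 against 90.2 and 98.9. Its log2 fold change was 0.18 (SE 0.0870, adjusted p of 0.232 by edgeR). Hin200 genes arose by duplication and resemble each other, as do the Oas, Ifit and Gbp genes, so reads that fit several copies may have been placed or dropped by the counting, and values for these families are uncertain to that extent.

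Among the remaining 12 effectors, 7 (58.3%) had an unadjusted p under 0.05, all lower in Asxl2-/- cells. The share over all tested genes was 27.7% (12.6% lower, 15.0% higher). Isg20, an exonuclease that degrades single-stranded RNA, was at 17.9, 24.7 and 32.2 CPM in Asxl2-/- replicates 1 to 3 and at 40.04, 69.7 and 82.5 CPM in control replicates 1 to 3. The groups did not overlap. The means after removal of the kind of file were 4.58 ± 0.432 and 5.96 ± 0.529 log2 CPM (SD, n = 3 each), and the log2 fold change was -1.39 (SE 0.340, 95% interval -2.22 to -0.57, adjusted p of 0.0801 by edgeR), with like values in the gene-count (-1.54) and the exon-count files (-1.22). Lgals3bp, a secreted glycoprotein that binds galectins, was even across the Asxl2-/- libraries at 204.0, 205.7 and 212.0 CPM, against 227.0, 298.7 and 288.1 CPM in control libraries. Its difference was smaller but had a narrow error, a log2 fold change of -0.42 (SE 0.119, adjusted p of 0.0999 by edgeR). Ifi44 was at 9.33, 11.3 and 7.97 CPM against 12.1, 21.8 and 20.2 CPM, again without overlap, with a log2 fold change of -0.92 (SE 0.271, adjusted p of 0.107 by edgeR).

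Bst2, or tetherin, holds budding virus at the cell surface and was among the most abundant members. It was at 69.8 and 72.4 CPM against 150.1 in the gene-count files and at 122.5 CPM against 102.1 and 182.2 in the exon-count files, where Asxl2-/- replicate 2 lay between the controls. The log2 fold change was -0.64 (SE 0.271, adjusted p of 0.188 by edgeR). Cmpk2, a mitochondrial nucleotide kinase, and Rsad2 (viperin), which makes a chain-terminating nucleotide, lie side by side on chromosome 12. Cmpk2 had a log2 fold change of -0.67 (SE 0.231, adjusted p of 0.134 by edgeR), and Rsad2 of 0.04 (SE 0.219, adjusted p of 0.920 by edgeR). Ifi35 (-0.50, SE 0.183), Trim21 (-0.35, SE 0.120) and Rtp4 (-0.35, SE 0.140) had an unadjusted p under 0.05, and Xaf1, a partner of an apoptosis inhibitor, at -0.38 (SE 0.189), Ifi27l2a at 0.05 (SE 0.220) and Samd9l at 0.15 (SE 0.0920) did not. Ifi27l2a shares 15.5% of its exon bases with Ifi27. Neighbouring genes thus had different fitted values in the Hin200, Oas and Rsad2-Cmpk2 clusters, and the differences between neighbours were not tested.

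**Figure D2:**
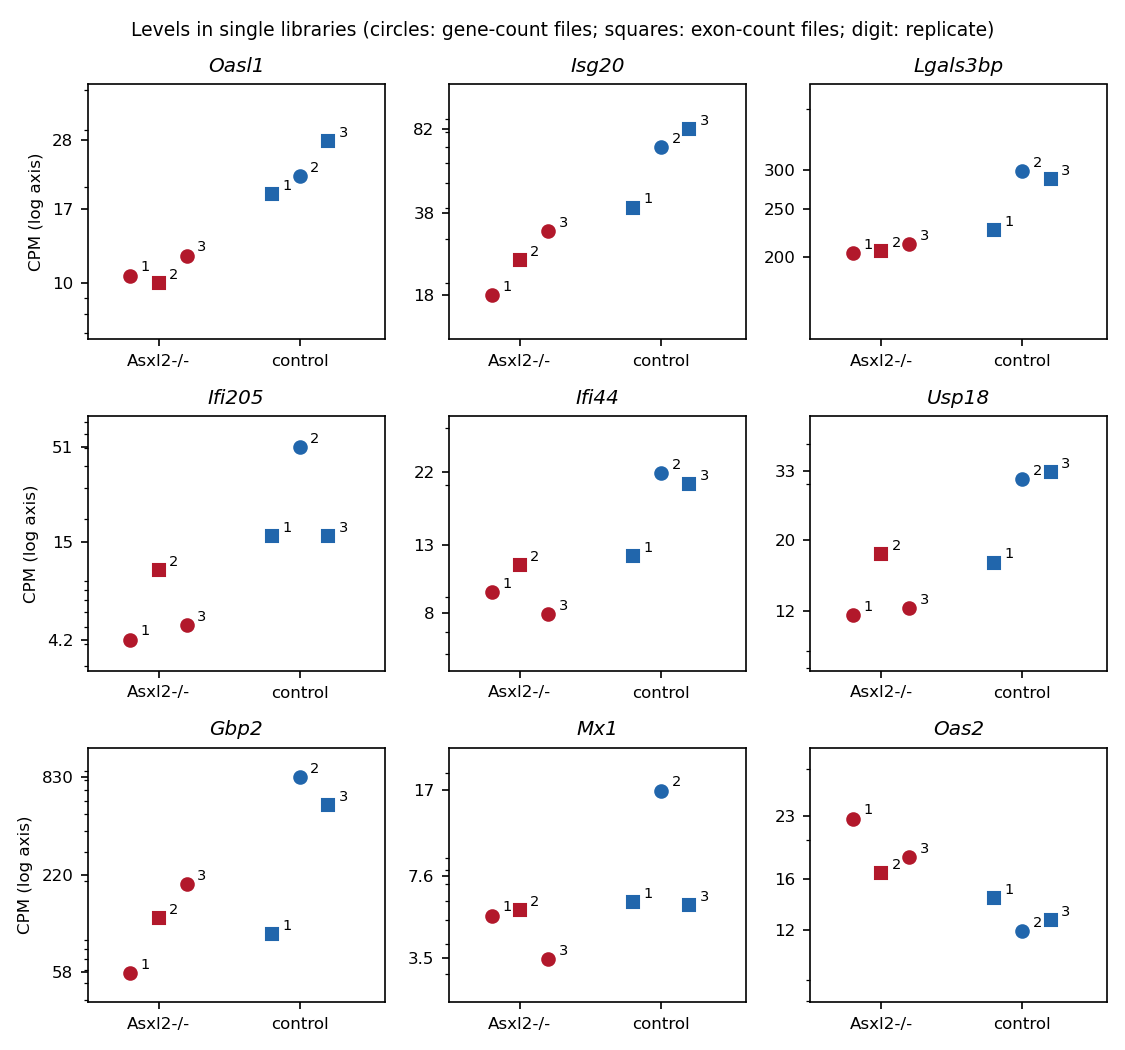
CPM on log axes in each library for 9 genes (circles: gene-count files, squares: exon-count files, digits: replicate numbers, red: Asxl2-/-, blue: control). Oasl1, Isg20, Lgals3bp, Ifi205, Ifi44 and Oas2 show no overlap between the groups, Gbp2 has control 1 below Asxl2-/- 2, which is of the same kind of file, and Mx1 is high in control 2 alone.

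Levels between genes can be set against each other only per length, and this was done in the 3 gene-count files as RPKM. RPKM here is the count scaled to the library's total count and divided by exon length in kilobases. It lacks the normalisation used for CPM, so differences between libraries in RPKM need not match those in CPM. Gbp2 had the highest mean at 148.2 RPKM, but its single values were 25.9, 85.2 and 333.5 in Asxl2-/- replicates 1 and 3 and control replicate 2. Bst2 followed at 132.2 (100.6, 102.5 and 193.6) and Lgals3bp at 115.4 (103.9, 106.0 and 136.2). The ranges of these 3 genes overlap, so their order is not settled. Gbp3 at 63.7 and Ifi203 at 48.4 came next, and their ranges overlap too. Mx2 at 0.825 and Ifit3 at 0.548 RPKM had the lowest means, below Ifi204 at 1.99, and the ranges of Mx2 and Ifit3 also overlap. Among the sensors Zbp1 had the highest mean, 21.1 RPKM, but its single values (6.35, 16.2 and 40.9) overlapped those of the other sensors, and it was the lowest of the 4 in Asxl2-/- replicate 1.

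**Figure D3:**
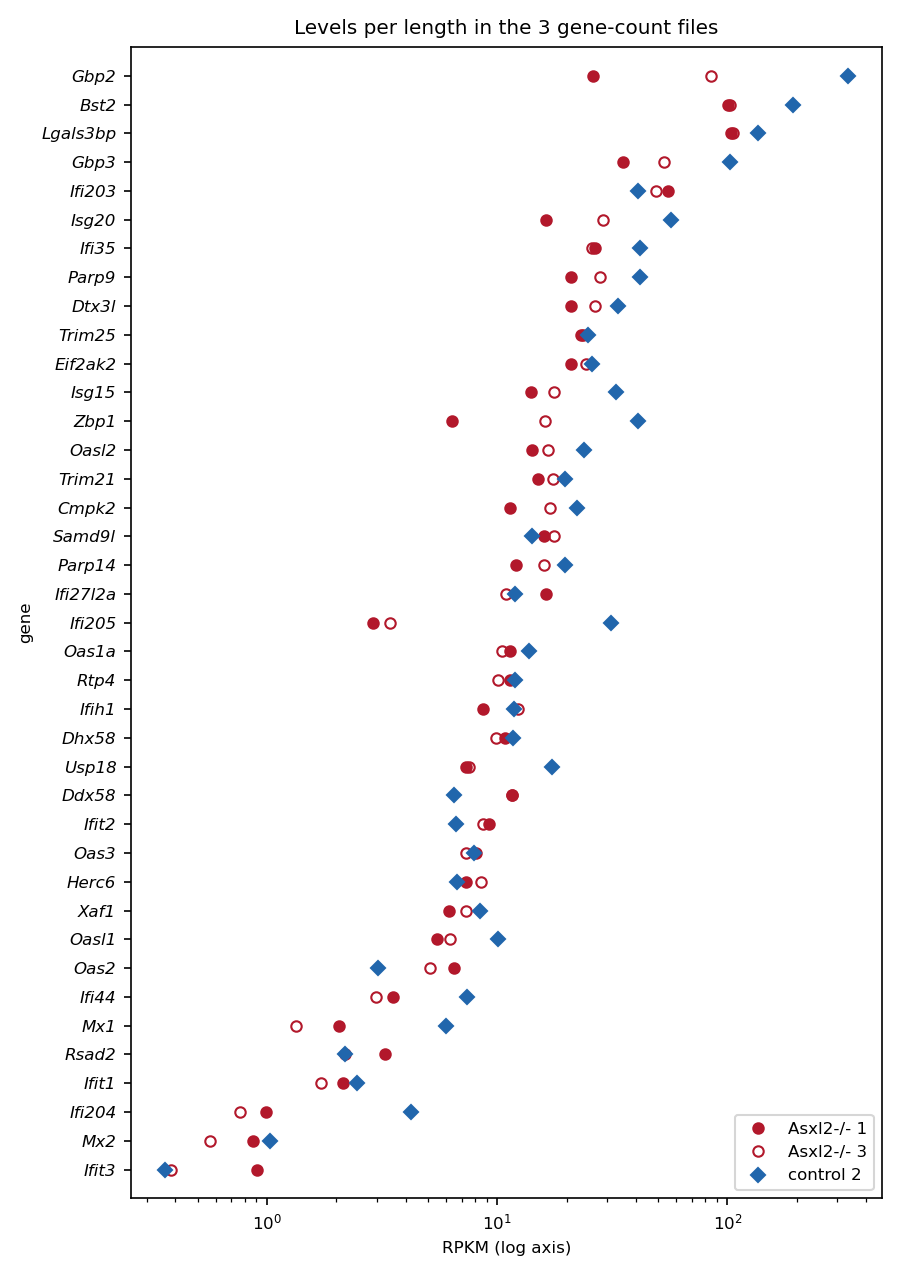
RPKM of the 39 genes in the 3 gene-count files on a log axis (filled circles: Asxl2-/- 1, open circles: Asxl2-/- 3, diamonds: control 2), ordered by their mean. Gbp2, Bst2 and Lgals3bp lead the order and Mx2 and Ifit3 close it, and the spread between libraries is widest for Gbp2, Zbp1 and Ifi205.

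The genes also differed between libraries of the same group, and more than most genes did. With the kind of file removed, the median SD over the 39 genes was 0.231 log2 CPM in Asxl2-/- and 0.288 in control cells, against 0.133 and 0.147 over all tested genes. These SDs are somewhat too small, because the removal used the same 6 libraries. Summed over the 39 genes, the level in the gene-count files was 1671 and 2033 CPM in Asxl2-/- replicates 1 and 3 and 3436 CPM in control replicate 2. In the exon-count files it was 1711 CPM in Asxl2-/- replicate 2 and 1643 and 2816 CPM in control replicates 1 and 3. The groups stood apart in the first kind of file and overlapped in the second.

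Within the gene-count files, control replicate 2 was above both Asxl2-/- libraries in 30 of the 39 genes (76.9%, against 42.2% of all tested genes) and below both in 5 (12.8%, against 42.4%). Within the exon-count files, Asxl2-/- replicate 2 was below both controls in 12 genes (30.8%, against 38.0%), above both in 6 (15.4%, against 39.5%) and between them in 21 (53.8%, against 22.5%). Control replicate 3 was above control replicate 1 in 31 of the 39 (79.5%, against 55.4%), and Asxl2-/- replicate 3 above Asxl2-/- replicate 1 in 23 (59.0%, against 45.0%). In the gene-count files control replicate 2 lay between the Asxl2-/- libraries in 4 genes (10.3%, against 15.3%). The 2 kinds of file thus differed, with most of the 39 genes higher in the single control of the gene-count files and most straddled by the 2 controls of the exon-count files.

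Genes with the groups apart in the same direction within both kinds of file numbered 17 of 39 (43.6%, against 48.6% of all tested genes). Of these, 12 were lower in Asxl2-/- cells (30.8%, against 23.3%), namely Ifit1, Oasl1, Mx1, Isg15, Trim25, Ifi205, Ifi44, Isg20, Cmpk2, Rtp4, Trim21 and Lgals3bp. The other 5 were higher (12.8%, against 25.4%), namely Ddx58, Ifit2, Oas2, Ifi203 and Samd9l. The total share was therefore near that of all genes, with more of it in the lower direction.

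**Figure D4:**
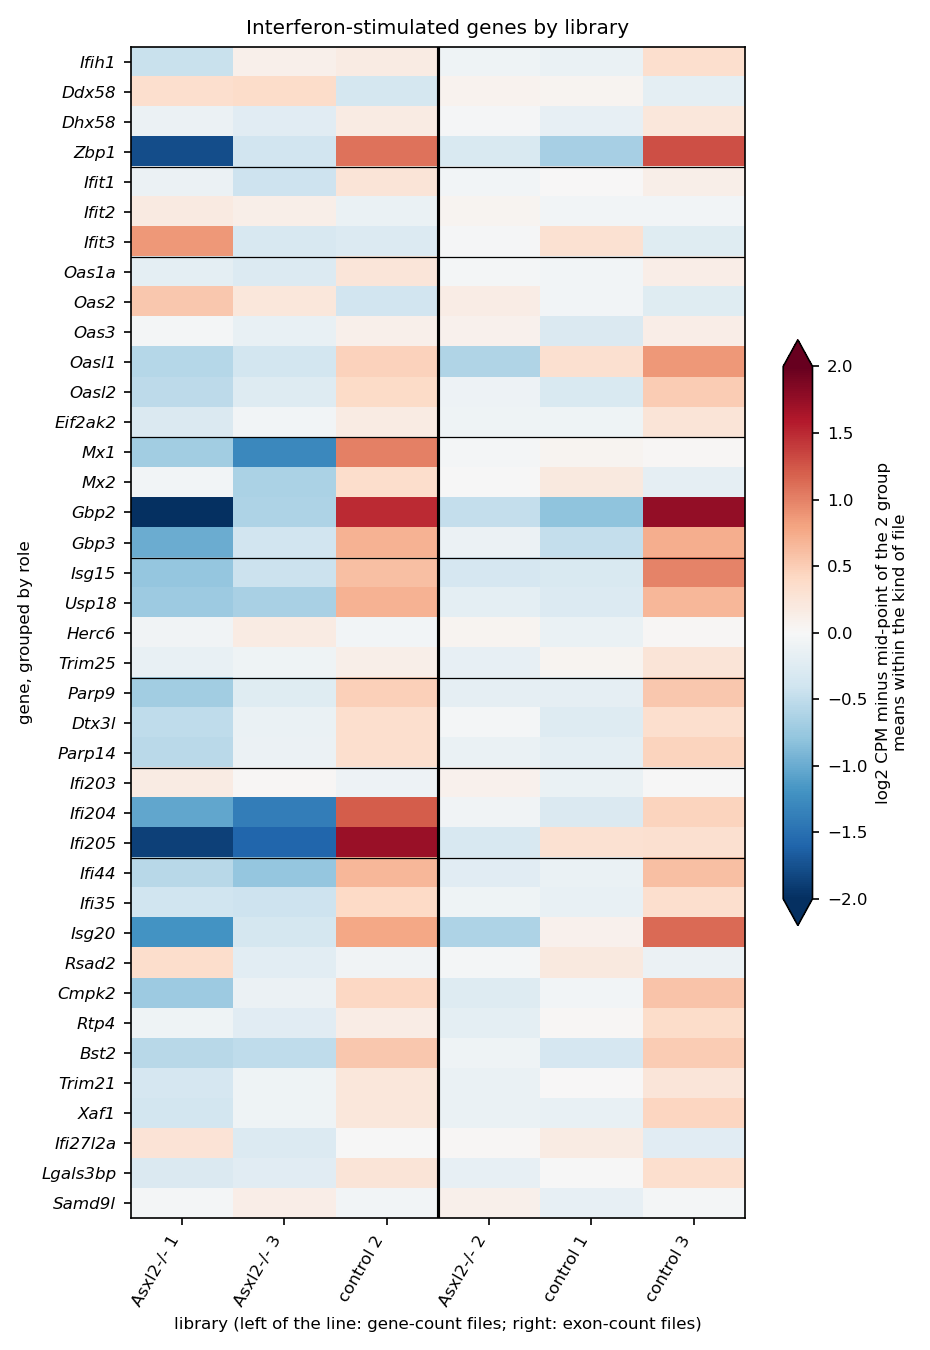
Level of each of the 39 genes in each library, as log2 CPM minus the mid-point of the 2 group means within its kind of file (colour, limited to -2 and 2). Left of the line are the gene-count files, where control 2 is above both Asxl2-/- libraries in 30 genes, and right of it the exon-count files, where control 3 is above control 1 in 31 genes.

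Of the 31 genes that were higher in control replicate 3 than in control replicate 1, 22 were also higher in Asxl2-/- replicate 3 than in Asxl2-/- replicate 1 and 9 were lower, and of the other 8 genes 7 were lower in both. Ifi44 (0.74 against -0.23) and Oas3 (0.43 against -0.12) are among the 9, and Usp18 (0.94 against 0.07) and Bst2 (0.84 against 0.05) hardly differed in the Asxl2-/- pair. For the genes furthest apart in the controls, the log2 difference between control replicates 3 and 1 was 2.54 for Gbp2, 1.95 for Zbp1, 1.29 for Isg15, 1.20 for Gbp3 and 1.04 for Isg20. Between Asxl2-/- replicates 3 and 1, which share no library with that difference, it was 1.74 for Gbp2, 1.37 for Zbp1, 0.35 for Isg15, 0.62 for Gbp3 and 0.84 for Isg20. Across the 39 genes these 2 differences correlated at 0.84 (Pearson) and 0.69 (Spearman), against 0.32 and 0.37 across all tested genes. The correlations describe 4 libraries over genes that are not independent, and carry no test. Mx1 (-0.04), Ifi204 (0.74) and Ifi205 (0.01) followed another course, since their excess in control replicate 2 was not matched by control replicate 3.

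**Figure D5:**
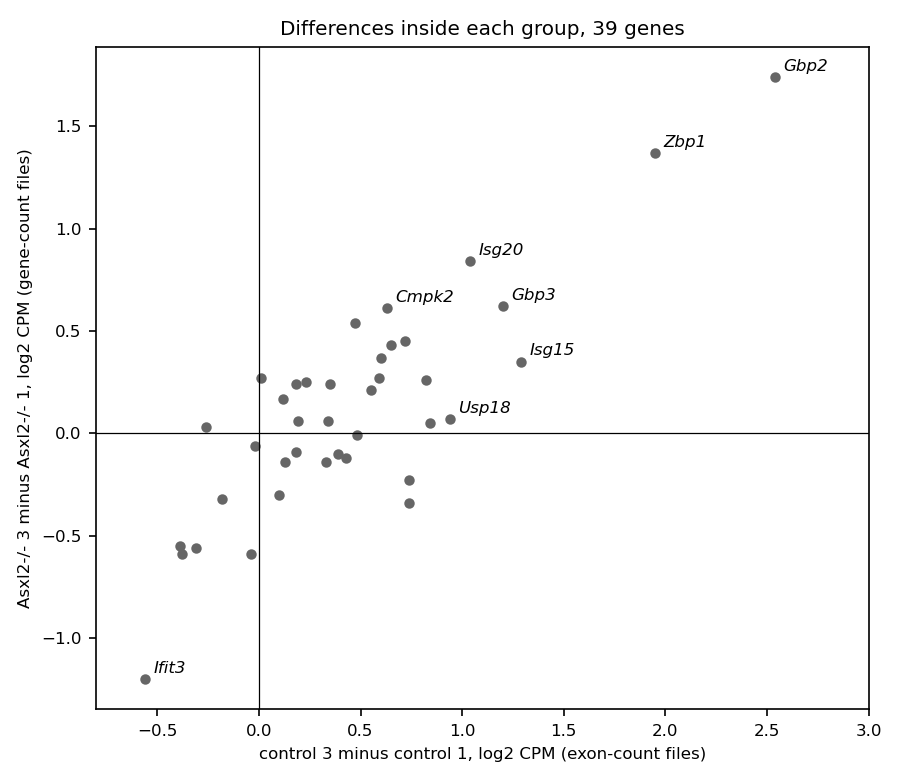
Each point is 1 of the 39 genes, with the log2 CPM difference between control replicates 3 and 1 on the x axis (exon-count files) and between Asxl2-/- replicates 3 and 1 on the y axis (gene-count files). Gbp2, Zbp1, Isg20, Gbp3 and Isg15 lie up and to the right, Ifit3 down and to the left, and Pearson r is 0.84 over the 39 genes.

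The rest of the interferon pathway was examined as 113 further genes in 6 lists, of which 94 passed the filter. None was called, 29 (30.9%) had an unadjusted p under 0.05 (23 lower, 6 higher in Asxl2-/- cells), a total near the 27.7% of all tested genes (12.6% lower, 15.0% higher), and the median log2 fold change was -0.24. Of 20 interferon genes, 16 had no count in any library, and only Ifng exceeded 4 counts, with 9 to 23 counts per library. For most interferon genes no RNA was detectable at this depth. None of the 6 receptor chains had an unadjusted p under 0.05. The smallest p among them belonged to Ifnar2, at -0.18 (SE 0.0956, adjusted p of 0.273 by edgeR), and Ifnar1 was at 0.05 (SE 0.0987).

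Of 14 Jak, Stat and Irf genes, 5 (35.7%) had an unadjusted p under 0.05, with 4 lower. The share over all tested genes was 27.7% (12.6% lower, 15.0% higher), not far from that of this short list. Irf7, the factor that amplifies type I interferon and whose translation Oasl1 restrains, was at 18.6, 28.1 and 21.9 CPM in Asxl2-/- replicates 1 to 3 and at 37.1, 58.7 and 59.0 CPM in control replicates 1 to 3. The groups did not overlap, and the log2 fold change was -1.15 (SE 0.243, adjusted p of 0.0668 by edgeR). Stat2 was at 49.5, 56.2 and 62.4 CPM against 64.4, 99.5 and 93.7 CPM, with a log2 fold change of -0.66 (SE 0.183, adjusted p of 0.0974 by edgeR). Irf4, a factor of B cells and plasma cells, was higher in Asxl2-/- cells by a fitted 1.32 log2 units (SE 0.392, adjusted p of 0.107 by edgeR). Irf9, the DNA-binding partner of Stat2, was nearly level, at -0.13 (SE 0.0799, adjusted p of 0.327 by edgeR).

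Among 10 negative regulators 2 (a share below the 27.7% of all tested genes) had an unadjusted p under 0.05, both lower, with Adar, which edits double-stranded RNA, at -0.37 (SE 0.0988, adjusted p of 0.0941 by edgeR). Among 12 upstream sensors and adaptors 3 (25.0%) did, all lower, namely Myd88 (-0.51), Tlr9 (-1.05) and Tlr3 (-1.16). Tlr3, an endosomal receptor for double-stranded RNA such as pIpC, was at 60.1 CPM in control replicate 2 and 11.1 to 15.8 CPM elsewhere. Of 51 other interferon-responsive genes, 19 (37.3%) had an unadjusted p under 0.05 (14 lower, 5 higher), with the smallest p-values for Znfx1 at -0.49 (SE 0.122, adjusted p of 0.0818 by edgeR), Ogfr at -0.48 (SE 0.120, adjusted p of 0.0822 by edgeR) and Tdrd7 at 0.41 (SE 0.113, adjusted p of 0.0960 by edgeR). Ly6a, which encodes the Sca-1 protein of the sort gate and is itself induced by interferon, was at 52.6, 69.1 and 57.6 CPM in Asxl2-/- replicates 1 to 3 and 40.5, 259.8 and 147.7 CPM in control replicates 1 to 3, with control replicates 2 and 3 above every other library, as in Gbp2. Its log2 fold change was -1.34 (SE 0.562, adjusted p of 0.187 by edgeR).

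Markers of other blood cells also differed between libraries. The summed level of 10 monocyte and macrophage markers was 500, 409 and 272 CPM in Asxl2-/- replicates 1 to 3. It was 201, 1136 and 347 CPM in control replicates 1 to 3, highest in the library where Mx1, Ifi204, Ifi205 and Tlr3 were high. That match rests on control replicate 2 alone. In the exon-count files Ifi205 was higher in both controls than in Asxl2-/- replicate 2, while the marker sum was lower in both. None of the 10 was called and none was at 0 in every library. The defining marker Csf1r was at 73.4 CPM in control replicate 2 and 13.3 to 33.0 CPM elsewhere. The list of 10 plasmacytoid dendritic markers, which includes Bst2, summed to 329 to 388 CPM in Asxl2-/- and 355, 811 and 451 CPM in control libraries. In control replicate 2, Irf8 was at 522.7 and Bst2 at 150.1 CPM, and both also stand in the interferon lists. The defining marker Siglech was at 1.98 CPM there, within a range of 0.338 to 3.94 CPM, and was highest in Asxl2-/- replicate 1. Tcf4, Runx2, Ly6d and Cox6a2 were not highest in control replicate 2 either, while Ccr9 and Pacsin1 were. In bulk RNA, more cells of a type and more RNA per cell cannot be told apart, and the part of other cells in the interferon values was not tested. B-lymphoid markers summed to 194 to 199 CPM in Asxl2-/- and 44.99 to 67.98 CPM in control libraries, and 8 of 10 were called higher in Asxl2-/- cells. Called higher in Asxl2-/- cells were also 5 of 9 megakaryocyte, 3 of 10 stem cell and 2 of 10 neutrophil markers. Erythroid markers summed to 807, 1047 and 1580 CPM in Asxl2-/- replicates 1 to 3 and 2424, 2204 and 3358 CPM in control replicates 1 to 3, lower in every Asxl2-/- library, and none of the 10 was called by edgeR. Car1 was the largest part of the control sums, at 1239, 929.9 and 1652 CPM in control replicates 1 to 3. Hbb-b1 (0.05) and Slc4a1 (0.29) had fitted log2 fold changes above zero, and the rest of the list lay below it. No T and NK or sort-gate marker was called either.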

How the data were processed

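LSK cells of Asxl2-/- and control mice, 3 libraries each, were profiled by poly(A), unstranded RNA sequencing. The deposited values were raw counts on mm10 with RefSeq transcripts, per transcript in 3 libraries and per exon in the other 3. The submitters' processing notes name STAR, featureCounts and DESeq2, without saying which step each served, and the study's methods name Cuffdiff. Each symbol was represented by its transcript of greatest exon length, and exon counts were summed. The labels number the replicates, and the study's methods call them biological replicates.

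Counts were tested with edgeR 4.0.16 (R 4.3.3; quasi-likelihood, TMM, filterByExpr, kind of file plus group, 3 residual degrees of freedom), two-sided, with Benjamini-Hochberg adjustment over 14145 genes and a threshold of 0.05. The fit was tested on simulated data. Fold changes given within 1 kind of file are differences of mean log2 CPM over 3 libraries and carry no test. Fits of each kind of file alone were run only as alternatives. Alternatives included DESeq2 1.42.0 and limma-voom 3.58.1.

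The members and gene lists were chosen with earlier results of these data known. Values in full were given for the 8 members of smallest p, the 5 of highest RPKM, Mx1 and Mx2, and up to 3 genes of smallest p per pathway list. Isg15, Zbp1, Ddx58, Ifit2, Ifi204, Cmpk2, Irf9, Ifnar1 and Ly6a were added after their values were seen. Values of 1 gene of the pathway lists are not reported here.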

Additional observations from a re-analysis of the deposited data

How the results depend on the processing

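The fitted directions of 15 members were the same under all 18 alternatives, and of the 270 values none changed sign, while 42 passed the threshold that they missed at first. The 15 were Oasl1, Isg20, Lgals3bp, Ifi205, Ifi44, Trim25, Oas2, Usp18, Bst2, Gbp3, Ifi203, Mx1, Mx2, Isg15 and Ddx58. Gbp2 was not among them, and Isg15 and Ddx58 were added after their values were seen. Since 8 of the 15 were picked for small p in the same data, a steady direction was likely beforehand. Some of the 42 came from fits that called more of all genes than the 2.34% at first. The shares were 16.3% with DESeq2 and 36.6% with the replicate block and the kind of file. Over all 39 members some signs did change, with 30 below zero at first, 32 with DESeq2 and 29 with limma-voom. The call counts were not stable. Against 331 genes and 0 of the 39 members at first, DESeq2 called 2302 genes and 9 members, library size alone 161 genes, omitting the kind of file 1 member (Oasl1), the gene-count files alone 1021 genes (7.08%) and 10 members, and the exon-count files alone 662 genes (4.47%) and 2 members. Each kind of file alone sets 1 library against 2, with the lone library assumed to vary like the others. Leaving out each library in turn gave 9 genes (0.0636%, without control replicate 3) to 1312 genes (9.33%, without control replicate 1). The members called ranged from 0 to 11 and the member median from -0.52 to -0.20, with 30 to 33 members below zero. The median of all genes moved by 0.10 with library size alone. The cause was not tested.

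Replicate numbers were checked as a pairing. Deviations from the group means, with the kind of file not removed, correlated at 0.310, 0.046 and 0.008 for numbers 1, 2 and 3. Each of these pairs set a gene-count library against an exon-count library, so the check cannot decide whether the numbers pair the libraries. Within 1 kind of file, the differences between replicates 3 and 1 of each group, described above, had a Pearson correlation of 0.32 across all tested genes. The main fit did not take the numbers as a pairing. With the replicate block and the kind of file, which leaves 1 residual degree of freedom, 5179 genes (36.6%) and 27 members were called (25 lower, 2 higher), and with the replicate block without the kind of file 3 members and 2.69% of genes.

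Depth limits Ifit3, Mx2 and Ifi204, and the 3 libraries per group limit the rest.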
